A study of Mus musculus with 6 samples.

Results

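The 34 genes described here encode RNA polymerase II, the enzyme that transcribes messenger RNA, and the factors that hold it near promoters or drive it along genes. They were chosen by name, as the rows of the count table whose mouse symbol equalled a listed one, and all 34 were found once each among 38293 rows. They comprised 13 polymerase subunits, 4 subunits of NELF, 3 of P-TEFb and 2 inhibitors of P-TEFb. The others were 5 components of the super elongation complex, 5 of the PAF complex, and 1 gene each for TFIIS and FACT. Polr2m, counted here among the 13 subunits, encodes a polypeptide associated with the polymerase. RNA was sequenced in 6 libraries of wild-type primary cortical neurons, dissociated from embryonic day 16 embryos of Swiss-Webster mice, an outbred stock. Both groups were grown to day 13 in vitro: 3 control libraries are labelled as untreated, and 3 libraries came from cultures bathed in 50 µM NMDA, an agonist of glutamate receptors, for 10 minutes, which were washed and collected after 50 minutes in medium without the drug. The growth protocol, shared by both groups, also names etoposide, a topoisomerase II poison; no library is labelled with it, and whether any culture received it is not stated. The protocol names 2 biological replicates whereas each group lists 3 libraries. The p-values therefore measure only how much these libraries vary, which may be technical.

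After starting transcription, RNA polymerase II often stops a short distance downstream of the promoter, held by NELF together with the factor DSIF. The kinase P-TEFb, made of Cdk9 and a cyclin T, phosphorylates NELF, DSIF and the tail of the polymerase's largest subunit and so releases it, while a small nuclear ribonucleoprotein built on 7SK RNA keeps part of P-TEFb inactive. The super elongation complex brings active P-TEFb to genes, and PAF, FACT and TFIIS help the moving polymerase through chromatin and past stops. In neurons this step is known for immediate early genes, some of which carry paused polymerase before stimulation.

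Total counts per library ranged from 15417234 to 19183999. The stimulus was visible in immediate early genes: in CPM, a library's counts scaled to its effective size, the control libraries averaged 3.30 ± 0.573 and the NMDA libraries 116 ± 24.5 for Fos (SD, n = 3), and 5.31 ± 1.19 and 64.2 ± 24.4 for Npas4. Markers of neurons were present in all 6 libraries, with 7 excitatory markers summing to 951 to 1250 CPM and 5 pan-neuronal markers to 4140 to 4860 CPM. Other cell types were present too. The summed level of 6 astrocyte markers was 1460, 1560 and 1950 CPM in control replicates 1, 2 and 3 and 1590, 2110 and 2520 CPM in the NMDA replicates, and 6 of 6 rose in the edgeR fit that compares libraries of the same replicate number (0 of 6 without that pairing), in which 14.0% of all genes were called, 5.65% higher and 8.35% lower. Neuron markers were called in both directions in that fit: Rbfox3 (0.40 on the log2 scale) and Tubb3 (0.30) among 5 pan-neuronal, Neurod2 (0.27) among 7 excitatory and Sst (0.27) among 7 inhibitory markers rose, and the excitatory marker Camk2a fell by 0.39. The sum of 5 oligodendrocyte markers was 204 and 176 CPM in the replicate 1 libraries and 48.6 to 58.2 CPM in the other four, and Mog, 1 of the 5, fell by 0.65 with the block. Microglia markers summed to 2.74 to 4.22 CPM. Of 6 endothelial and fibroblast markers, summing to 47.6 to 121 CPM, Acta2 made up 43.6 to 117 CPM and rose by 0.56 with the block, while Cldn5 had no count and Pecam1 stood at 1.07 to 1.45 CPM. In bulk RNA, fewer cells of a type and less RNA per cell cannot be told apart, and the part of cell composition in the values below was not tested.

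For most of the 34 genes no change after NMDA was detected beyond the spread between libraries, and 4 factors differed when libraries of the same replicate number were compared: Rtf1, Larp7 and Aff1 were higher and the cyclin gene Ccnt2 was lower. Ell3 was too low to test. Of the 33 tested members, 0 passed an adjusted p of 0.05 in the edgeR quasi-likelihood test without the replicate block, against 0.43% of all 14642 genes tested (0.376% higher and 0.0546% lower). At an unadjusted p under 0.05 there were 3 higher and 1 lower members, against 13.7% of all genes in either direction. Without the block and at the adjusted threshold, the DESeq2 Wald test and limma-voom also called 0 members. Over all genes they called 150 higher and 150 lower (DESeq2) and 53 higher and 7 lower (limma-voom). With the replicate number as a block, 3 members rose (Rtf1, Larp7 and Aff1) and 1 fell (Ccnt2). The background in that fit was 14.0% of all genes, 5.65% higher and 8.35% lower, so 4 of 33 members is near the background and is not a result about the group as a whole. At an unadjusted p under 0.05 the block gave 4 higher and 2 lower members, against 28.7% of all genes. The DESeq2 Wald test with the block called Rtf1, Larp7 and Aff1 higher and Ccnt2 lower at an adjusted p under 0.05. It called 6.96% of all genes. The median log2 fold change of the 33 members was 0.04 without the block (all genes -0.01) and the median absolute value was 0.09 (all genes 0.15).

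For 9 members (Polr2l, Nelfcd, Nelfe, Larp7, Aff1, Ell2, Paf1, Leo1 and Rtf1) each NMDA library exceeded each control library, against 8.18% of all genes. For 0 members was each NMDA library below each control, against 11.1% of all genes, and in 24 members the groups overlapped. Within pairs of the same replicate number, 11 members were higher in NMDA in all 3 pairs (22.5% of all genes) and 3 were lower in all 3 (25.7% of all genes). None of the 9 members with separate groups passed in edgeR without the block under the default filter. With the block only Rtf1, Larp7 and Aff1 passed. The differences of the others were at most 0.23 on the log2 scale in either fit.

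**Figure D1:**
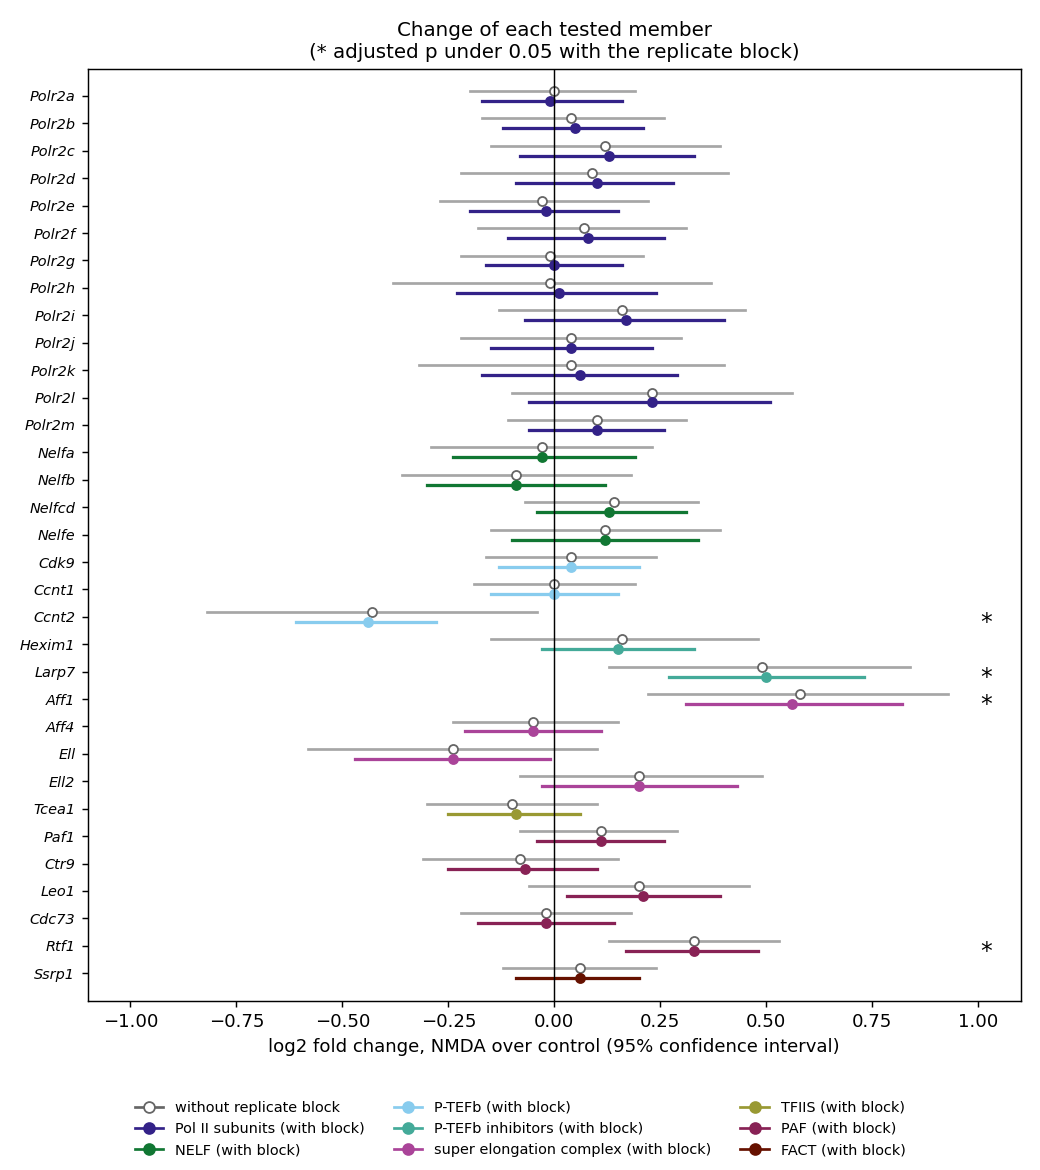
Log2 fold change (NMDA over control) of each of the 33 tested members with its 95% confidence interval, in edgeR without the replicate block (open points, grey) and with it (filled, coloured by complex); stars mark an adjusted p under 0.05 with the block. The fitted values with the block run from -0.44 for Ccnt2 to 0.56 for Aff1, and the 13 polymerase subunits lie between -0.02 and 0.23.

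The 4 genes called with the block have the following sequence immediately upstream of a RefSeq start site (GRCm38.p6, 5′ to 3′ on the gene's strand, ending at the base before the start). The sequences are shown because these members were called with the block. In the edgeR fit of all libraries without the block, under the default filter, no member was called. Capitals mark matches, on either strand, to the cyclic AMP response element TGACGTCA or to the CCAAT box. The AP-1 motif TGANTCA was also searched on both strands and would have been in capitals. The same holds for TATAAA. The Rtf1 stretch (chr2:119674818-119675067, plus strand) lies in no annotated gene, directly before the Rtf1 gene, which spans 119675068 to 119735407 on chromosome 2. The Larp7 stretch (chr3:127553350-127553488, minus strand) also lies in no gene; the gene spans 127536714 to 127553349 on chromosome 3, and the first exon of Zgrf1, on the opposite strand, begins at the next base upstream and is not shown. The Aff1 stretch (chr5:103753912-103754161, plus strand) lies in an intron of the annotated Aff1 gene, which spans 103692374 to 103855322 on chromosome 5, because RefSeq places a start inside the longer GENCODE model. Another RefSeq window of Aff1 (chr5:103754323-103754572) includes 32 bases of Aff1 exon and is not shown. The Ccnt2 stretch (chr1:127773914-127774163, plus strand) precedes the gene, which spans 127774164 to 127808061 on chromosome 1, and 165 of its 250 bases are exon of 2900009J06Rik, a gene on the opposite strand.
Rtf1: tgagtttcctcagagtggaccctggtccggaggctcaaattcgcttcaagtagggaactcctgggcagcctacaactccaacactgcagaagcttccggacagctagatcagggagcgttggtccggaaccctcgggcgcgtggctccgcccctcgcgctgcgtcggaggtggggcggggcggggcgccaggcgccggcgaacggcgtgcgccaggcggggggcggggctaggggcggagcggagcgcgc
Larp7: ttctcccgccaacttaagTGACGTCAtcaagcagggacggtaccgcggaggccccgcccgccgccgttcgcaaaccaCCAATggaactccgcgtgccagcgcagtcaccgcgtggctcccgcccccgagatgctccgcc
Aff1: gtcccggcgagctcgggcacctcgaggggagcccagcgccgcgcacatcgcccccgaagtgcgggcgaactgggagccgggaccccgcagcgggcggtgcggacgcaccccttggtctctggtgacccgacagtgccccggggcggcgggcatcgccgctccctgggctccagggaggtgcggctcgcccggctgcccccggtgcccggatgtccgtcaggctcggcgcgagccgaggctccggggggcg
Ccnt2: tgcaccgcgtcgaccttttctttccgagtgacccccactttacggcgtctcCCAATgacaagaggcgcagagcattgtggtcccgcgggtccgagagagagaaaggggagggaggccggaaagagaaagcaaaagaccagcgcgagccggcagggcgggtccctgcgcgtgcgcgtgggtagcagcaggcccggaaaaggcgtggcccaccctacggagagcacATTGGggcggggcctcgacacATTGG
Larp7 held the palindrome TGACGTCA from -121 to -114 and CCAAT from -62 to -58, counted from the start site, and Ccnt2 held CCAAT from -199 to -195 and, on the other strand, from -26 to -22 and from -5 to -1. Rtf1 and Aff1 had no match to these 4 motifs. The GC box GGGCGG (both strands, in places overlapping another motif, not in capitals) matched 5 times in the Rtf1 stretch and 2 times in each of the other 3. Among the 27 members with a RefSeq window of 250 bases, 2 (Larp7 and Ell2) had TGACGTCA in at least 1 window, against 1.55% of all 32851 windows; 11 had CCAAT (33.8% of windows), 3 had TATAAA (12.4%), 0 had TGANTCA (6.75%) and 24 had GGGCGG (32.7%). Members were counted by gene over any window and the shares by single window, so counts and shares are not like for like. All matches are of letters only.

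P-TEFb consists of the kinase Cdk9 and 1 of 2 cyclins, and only the Ccnt2 cyclin was called. Ccnt2 stood at 122, 117 and 92.2 CPM in control replicates 1, 2 and 3 and at 104, 76.6 and 65.4 CPM in the NMDA replicates. Each NMDA library was below the control of its own number, but the highest NMDA library was above the lowest control, so the groups overlapped. Ccnt2 fell by 0.44 on the log2 scale (SE 0.08, 95% interval -0.61 to -0.28, adjusted p = 0.00075) in the edgeR fit with the block, or to 0.736 of the control level. Without the block the value was -0.43 ± 0.17 (SE, adjusted p = 0.32), and leaving out 1 library moved it to between -0.27 (without NMDA replicate 3) and -0.62 (without NMDA replicate 1), uncalled in each case. In the fit with the block and offsets for GC content and exonic length it was -0.33 (adjusted p = 0.0055). The differences within pairs 1, 2 and 3 were -0.23, -0.60 and -0.49. Both libraries of pair 1 had high oligodendrocyte marker sums, and the part of this in the Ccnt2 differences was not tested.

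The other cyclin, Ccnt1, stood at 69.9, 74.9 and 69.9 CPM in control and 71.6, 76.1 and 67.3 CPM in NMDA libraries. Its fitted log2 change with the block was 0.00 with an interval of -0.15 to 0.15, so a change of the size of that of Ccnt2 lies outside the interval. Cdk9, the kinase itself, stood at 42.6, 39.0 and 39.4 CPM and at 41.2, 42.9 and 39.9 CPM, a log2 difference of 0.04 with an interval of -0.13 to 0.20. The log2 ratio of Ccnt2 to Ccnt1 counts within a library was 0.81, 0.64 and 0.40 in control and 0.54, 0.01 and -0.04 in NMDA libraries. It was lower in NMDA by 0.27, 0.63 and 0.44 in the 3 pairs. The mean difference of -0.44 had p = 0.2 in the two-sided exact permutation test over libraries, which cannot go below 0.1, and p = 0.25 by exact sign flips of the pairs, the smallest that test can give.

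Larp7 binds and stabilises the 7SK RNA, and Hexim1 is the protein through which that RNA inhibits Cdk9. Larp7 stood at 13.2, 20.6 and 19.3 CPM in control libraries and at 23.9, 24.7 and 25.8 CPM in NMDA libraries. All NMDA libraries were above all controls, and control replicate 1 was the lowest of the 6. Larp7 rose by 0.50 ± 0.11 (SE, 1.41-fold, interval 0.27 to 0.73, adjusted p = 0.0045) in the edgeR fit with the block and was not called without it (0.49 ± 0.16, adjusted p = 0.24, or 0.32 without control replicate 1). The pair differences were 0.86, 0.26 and 0.42, so the pair with the low control carried the largest. With that pair left out the blocked value was 0.35 (adjusted p = 0.017).

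Hexim1 stood at 30.7, 34.7 and 35.4 CPM in control and 29.4, 40.8 and 42.6 CPM in NMDA libraries. NMDA replicate 1 was below all controls and the other NMDA libraries were above them. The blocked change of 0.15 (interval -0.03 to 0.33, adjusted p = 0.26) passed only when pair 1 was left out, at 0.26 (adjusted p = 0.034). The log2 ratio of Larp7 to Hexim1 was -1.22, -0.76 and -0.88 in control and -0.30, -0.73 and -0.72 in NMDA libraries. The groups did not overlap (exact permutation p = 0.1, the smallest possible), but pair 1 contributed a difference of 0.92 and pairs 2 and 3 only 0.03 and 0.15.

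**Figure D2:**
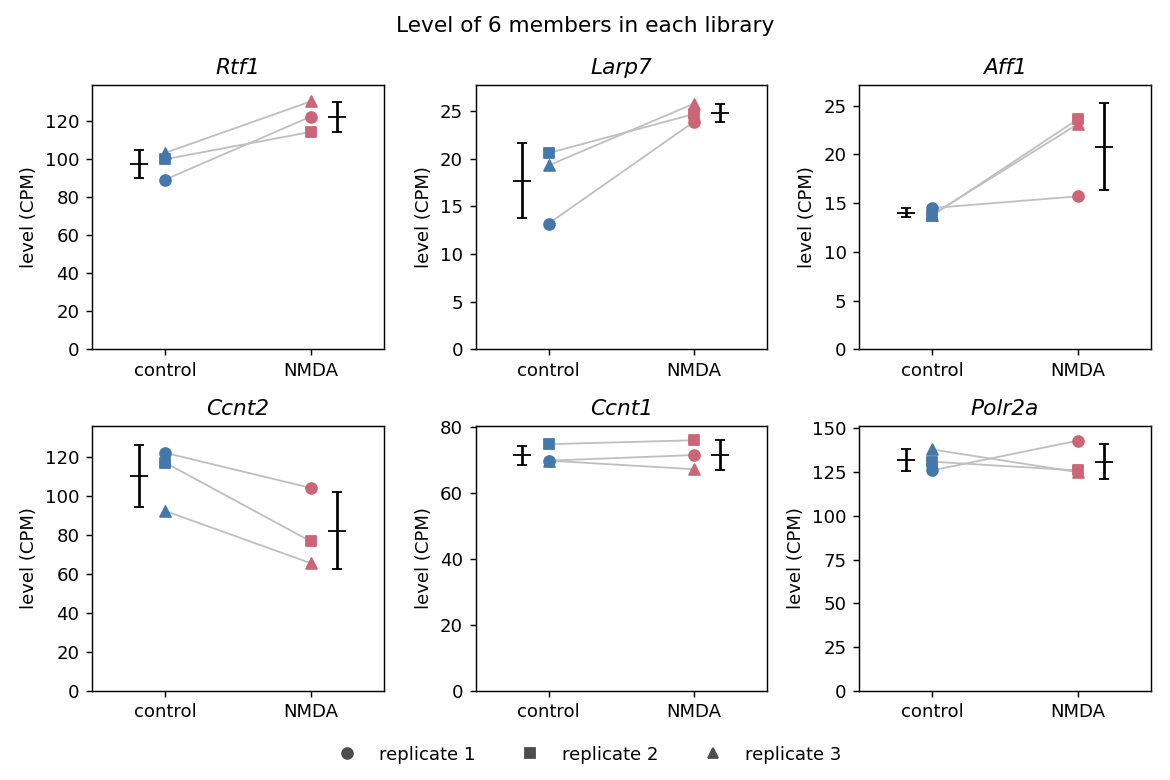
Level (CPM, axes from 0) of Rtf1, Larp7, Aff1, Ccnt2, Ccnt1 and Polr2a in each library; marker shapes give the replicate number, grey lines join libraries of the same number, and bars give the mean ± SD of 3 libraries. Ccnt2 is lower in NMDA in every pair although the groups overlap, and the NMDA libraries of Ccnt1 and Polr2a lie on both sides of their control means.

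The super elongation complex is built on the scaffolds Aff1 or Aff4, to which P-TEFb and a polymerase-stimulating Ell protein attach. Aff1 stood at 14.5, 13.7 and 13.8 CPM in control and 15.7, 23.6 and 23.1 CPM in NMDA libraries. NMDA replicates 2 and 3 were far above the controls and NMDA replicate 1 was just above them. Aff1 rose by 0.56 ± 0.12 (SE, 1.48-fold, interval 0.31 to 0.82, adjusted p = 0.0051) in the edgeR fit with the block, and the pair differences were 0.11, 0.79 and 0.75. Without the block it stood at 0.58 ± 0.16 (adjusted p = 0.19) and passed with NMDA replicate 1 left out (0.75, adjusted p = 0.024) or with no filter on low counts (0.58, adjusted p = 0.040). The mean marker change of astrocytes was also smallest in pair 1, at 0.16, against 0.41 and 0.35 in pairs 2 and 3; its part in the Aff1 difference was not tested.

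Aff4, the other scaffold, stood at 289, 297 and 302 CPM in control and 300.0, 294 and 267 CPM in NMDA libraries, a blocked log2 difference of -0.05 with an interval of -0.21 to 0.11. The log2 ratio of Aff1 to Aff4 counts moved from -4.31, -4.44 and -4.45 in control to -4.25, -3.63 and -3.53 in NMDA libraries. The groups did not overlap (difference 0.60, exact permutation p = 0.1, the smallest possible), again with little difference in pair 1 (0.06).

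Among the Ell proteins, Ell2 and Ell went in opposite directions without passing. Ell2 stood at 10.8, 11.1 and 12.8 CPM in control and 13.1, 12.8 and 13.9 CPM in NMDA libraries, higher in all 3 pairs (0.29, 0.21 and 0.12). Its blocked value of 0.20 (interval -0.03 to 0.43, adjusted p = 0.24) passed only with GC and length offsets added, at 0.33 (adjusted p = 0.044). Ell stood at 15.3, 13.3 and 11.6 CPM in control and 12.5, 11.7 and 9.81 CPM in NMDA libraries, lower in all 3 pairs, with a blocked value of -0.24 (interval -0.47 to -0.01, adjusted p = 0.16). The log2 ratio of Ell2 to Ell was higher in NMDA by 0.58, 0.40 and 0.35 in the 3 pairs, while the groups overlapped (exact permutation p = 0.3). Ell3 had 1, 2 and 2 reads in control and 3, 1 and 6 reads in NMDA libraries. It was not tested, and 65.57% of its exonic bases are shared with Serinc4 on the same strand.

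The PAF complex travels with the elongating polymerase and is needed for histone modification over transcribed genes; Rtf1 is the subunit with the domain that promotes ubiquitination of histone H2B. Rtf1 stood at 89.0, 99.7 and 103 CPM in control and 122, 114 and 130 CPM in NMDA libraries. The lowest NMDA library was above the highest control. Rtf1 rose by 0.33 ± 0.07 (SE, 1.25-fold, interval 0.17 to 0.48, adjusted p = 0.0052) in the edgeR fit with the block, with pair differences of 0.45, 0.20 and 0.34, and was not called without it (0.33 ± 0.09, adjusted p = 0.18).

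The 4 other PAF genes did not pass. Leo1 stood at 25.1, 31.9 and 32.3 CPM in control and 33.0, 34.4 and 35.4 CPM in NMDA libraries, with a blocked value of 0.21 (interval 0.03 to 0.39, adjusted p = 0.12). Paf1, which gives the complex its name, stood at 54.4, 61.1 and 56.1 CPM and at 61.3, 62.1 and 61.4 CPM (blocked value 0.11, adjusted p = 0.35), its groups separated by the gap between 61.1 and 61.3 CPM. Ctr9, a scaffold subunit, stood at -0.07 (interval -0.25 to 0.10) and Cdc73, also known as parafibromin, at -0.02 (interval -0.18 to 0.14). The log2 ratio of Rtf1 to Paf1 was 0.71, 0.70 and 0.88 in control and 0.99, 0.88 and 1.08 in NMDA libraries. It was higher in NMDA by 0.28, 0.18 and 0.20 in the 3 pairs (difference 0.22, exact permutation p = 0.1, the smallest possible).

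Over the 6 ratios of partner genes compared in this way, adjusted p-values ran from 0.2 to 0.5 and none could have passed 0.05 with 3 libraries against 3. The sixth ratio, between the catalytic subunits Polr2a and Polr2b, was 0.54, 0.43 and 0.36 in control and 0.49, 0.28 and 0.40 in NMDA libraries (difference -0.05, exact permutation p = 0.5).

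**Figure D3:**
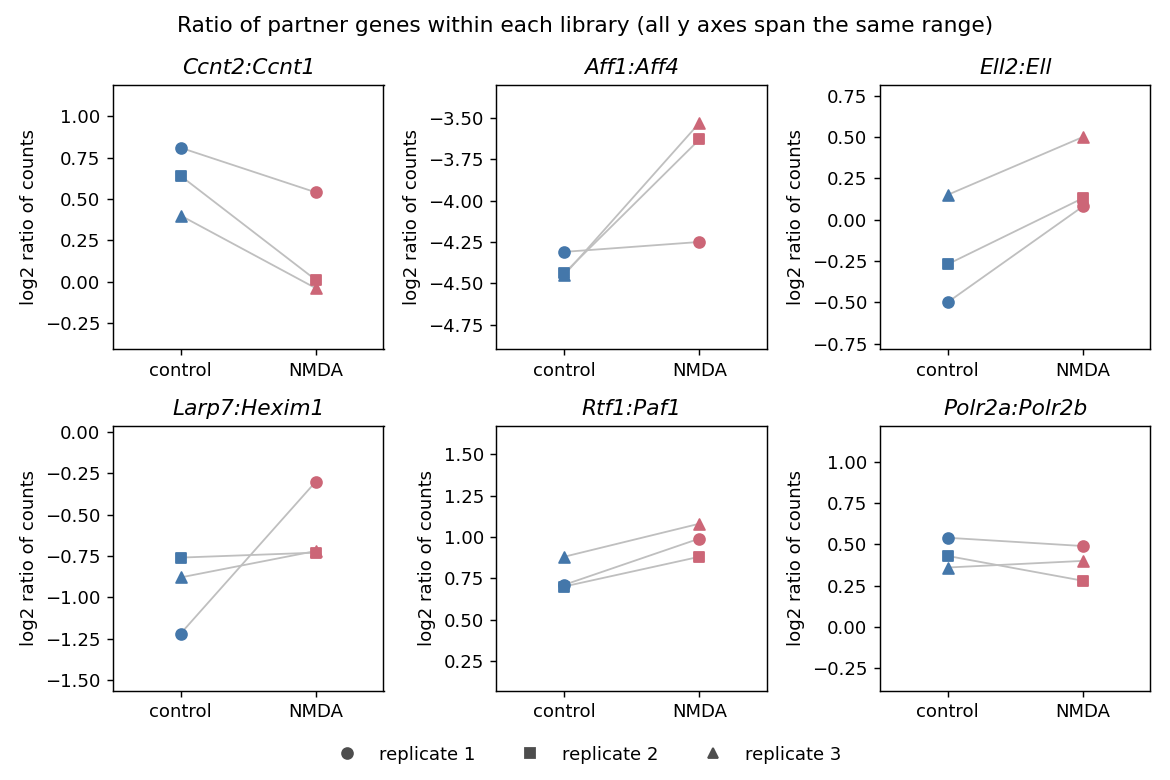
Log2 ratio of the counts of 2 partner genes in each library (0.5 added to each count; each y axis covers an equal span). Marker shapes give the replicate number and lines join libraries of the same number. Rtf1 to Paf1 and Ell2 to Ell move by similar amounts in all pairs, whereas Aff1 to Aff4 moves mainly in pairs 2 and 3 (0.81 and 0.93) and Larp7 to Hexim1 mainly in pair 1 (0.92).

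NELF, the complex that holds paused polymerase, had 0 of 4 subunits past the threshold in either fit. The shares of all genes were 0.43% without the block and 14.0% with it, so 0 of 4 is near the background. Nelfcd had the smallest p of the 4. It stood at 28.1, 30.7 and 29.9 CPM in control and 31.7, 33.7 and 32.0 CPM in NMDA libraries, with the groups separate and pair differences of 0.18, 0.13 and 0.10; the blocked value was 0.13 (interval -0.04 to 0.31, adjusted p = 0.30). Nelfe, the RNA-binding subunit, stood at 0.12 with separate groups, Nelfa at -0.03 and Nelfb at -0.09. The interval of Nelfb, -0.30 to 0.12, was the one that reached lowest.

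Tcea1 encodes TFIIS, which rescues polymerase that has slid backwards by letting it cut its own RNA. It stood at 217, 198 and 185 CPM in control libraries and at 194, 186 and 181 CPM in NMDA libraries. NMDA was lower in all 3 pairs, by 0.17, 0.09 and 0.03 on the log2 scale, and the blocked value of -0.09 (interval -0.25 to 0.06, adjusted p = 0.42) did not pass. The annotated pseudogenes Tcea1-ps1 and Polr2k-ps, which could share reads with their parents, had 4 and 0 counts in all 6 libraries together. Ssrp1, a subunit of the histone chaperone FACT, stood at 114, 120 and 119 CPM and at 115, 128 and 124 CPM (blocked value 0.06, interval -0.09 to 0.20, adjusted p = 0.64).

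None of the 13 polymerase subunit genes passed in either edgeR fit, against 0.43% of all genes without the block and 14.0% with it. None had an unadjusted p under 0.05 in these fits, against 13.7% and 28.7% of all genes. DESeq2 and limma-voom called 0 of them at the adjusted threshold. Polr2a, the largest subunit, which carries the phosphorylated tail, stood at 126, 131 and 138 CPM in control and 143, 126 and 125 CPM in NMDA libraries. Its values averaged 132 ± 6.08 and 131 ± 9.88 CPM (SD, n = 3), the blocked interval was -0.17 to 0.16, and the pairs disagreed in sign (0.18, -0.06 and -0.14). Polr2b, the second catalytic subunit, stood at 0.05 with an interval of -0.12 to 0.21.

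Polr2l, a small subunit shared with the other RNA polymerases, had the largest fitted change of the 13. It stood at 6.99, 7.0 and 6.65 CPM in control and 7.38, 7.82 and 8.95 CPM in NMDA libraries, a value of 0.23 with an interval of -0.06 to 0.51 (adjusted p = 0.29 with the block). Its groups were the only separate ones among the subunits. The remaining subunits had blocked values from -0.02 (Polr2e) to 0.17 (Polr2i). Polr2i, Polr2c and Polr2j share 26.82%, 18.13% and 15.91% of their exonic bases with genes on the opposite strand, which matters if the counting did not use strand.

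For most subunits, single control libraries lay further apart than the group means did, although single libraries vary more than means. Control replicate 3 was the lowest control for 11 of the 13, with Polr2k at 21.5, 26.5 and 16.2 CPM and Polr2h at 15.8, 17.8 and 11.6 CPM in control replicates 1, 2 and 3. For the catalytic subunits Polr2a and Polr2b, control replicate 3 was the highest control. Genes at large showed a split by exon length: among 2026 genes with under 2 kb of exon, control replicate 3 was the lowest control in 50.3%, against 30.2% of 6218 genes with over 5 kb and 34.8% of all genes. Polr2c, with 5256 bases of exon against 4667 for Polr2b, was lowest in control replicate 3, at 24.5, 23.7 and 19.1 CPM. The part of length in the subunit values was not tested beyond the fit with GC and length offsets, in which 0 of the 13 passed.

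**Figure D4:**
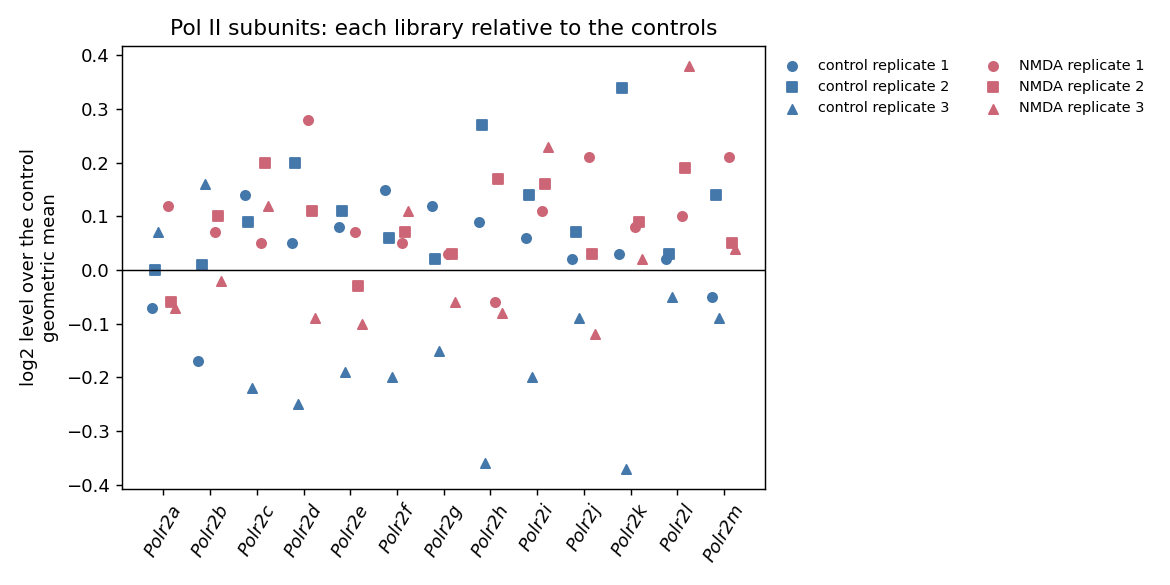
Log2 level of the 13 polymerase subunit genes in each library, relative to the geometric mean of the 3 controls. Blue triangles (control replicate 3) lie below 0 for 11 subunits and above 0 for Polr2a and Polr2b, and the NMDA libraries lie mostly within the range of the controls.

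Levels between genes were compared as control means in CPM per kb of exon. The highest were Polr2m, which encodes a polypeptide associated with the polymerase, at 68.0 ± 5.92, and Tcea1 at 66.4 ± 5.39 CPM per kb (SD, n = 3), and the ranges of their control libraries overlapped. Both were separate, with no overlap between control libraries, from the third, Polr2g, at 38.9 ± 3.60. The catalytic subunits Polr2b (20.8 ± 2.31) and Polr2a (18.6 ± 0.861) overlapped each other and their neighbours Aff4 (22.0 ± 0.471) and Rtf1 (17.0 ± 1.27). P-TEFb genes lay close together, with Ccnt2 at 8.93 ± 1.29, Cdk9 at 8.74 ± 0.437 and Ccnt1 at 7.81 ± 0.315 CPM per kb. The median over 14489 tested genes with a length was 4.86 CPM per kb.

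At the low end, Cdc73 (2.64 ± 0.133), Aff1 (1.48 ± 0.0489), Ell2 (1.18 ± 0.112) and Ell3 (0.0412 ± 0.0143 CPM per kb) were each separate from the next. Most neighbours in the order overlapped: besides these, gaps without overlap lay only after Tcea1, Paf1, Cdk9, Leo1 and Nelfa. Polr2c (4.28) and Polr2l (4.17 ± 0.122) were the lowest of the polymerase subunits per length. Union exon length counts all annotated exons, so a gene with long unused exons reads low on this scale.

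**Figure D5:**
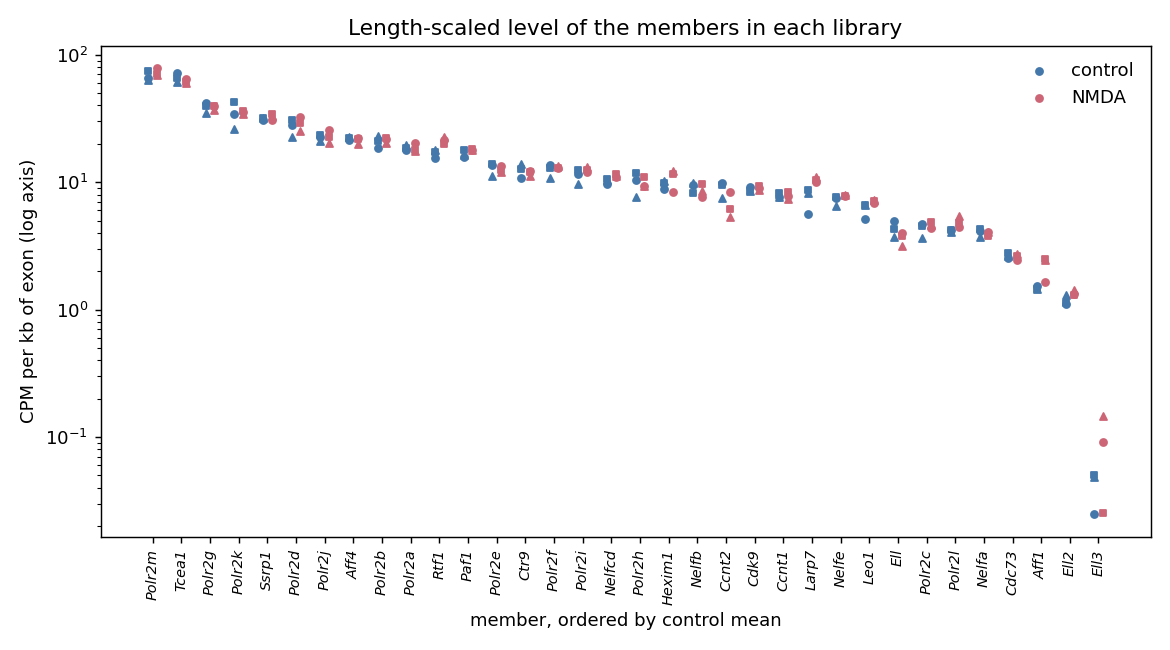
Level of the 34 members in each library in CPM per kb of exon (log axis), ordered by the control mean; blue marks are control and red marks NMDA libraries. Polr2m and Tcea1 lead near 68.0 and 66.4 CPM per kb, and Ell3 lies far below the others at 0.0412.

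Other genes of the transcription machinery, were taken from lists by function. Of 65 such genes, 0 passed in edgeR without the block (0.43% of all genes), and 6 had an unadjusted p under 0.05 (13.7% of all genes). Without the block DESeq2 called 1 lower, against 150 higher and 150 lower of all genes. In limma-voom 0 were called, against 53 higher and 7 lower of all genes. With the block in edgeR 2 rose and 4 fell, against the background of 14.0%. Of these 6, only Tcea2 was also called by the DESeq2 Wald test with the block, and only Tcea2 in each of the 3 blocked edgeR fits without a pair; Cdk7 was called in none of those 3. The 20 other pausing and elongation factors, among them the DSIF subunit Supt5 (0.05, interval -0.10 to 0.20) and the partner of Ssrp1 in FACT, Supt16 (0.08, interval -0.07 to 0.24), had 2 called, both lower. Tcea2, a relative of Tcea1, stood at 24.4, 14.9 and 13.7 CPM in control and 12.1, 9.48 and 8.10 CPM in NMDA libraries and fell by 0.81 on the log2 scale (SE 0.11, edgeR with block, adjusted p = 5.7e-05). Aff2, a relative of Aff1, stood at 20.6, 19.6 and 23.6 CPM and at 18.8, 16.5 and 13.2 CPM and fell by 0.41 (adjusted p = 0.034). In both, every NMDA library was below every control.

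Of 12 kinases and phosphatases of the polymerase tail, Cdk7, the kinase of the initiation factor TFIIH, fell by 0.24 (edgeR with block, adjusted p = 0.034) and the phosphatase Ctdsp1 rose by 0.31 (adjusted p = 0.026). Cdk7 stood at 73.6, 65.7 and 70.8 CPM in control and 58.4, 60.9 and 58.6 CPM in NMDA libraries, with no overlap, and Ctdsp1 at 26.6, 28.1 and 32.2 CPM and at 30.0, 40.5 and 37.4 CPM, with overlap. Of 15 general initiation factors, only Ercc2, a helicase of TFIIH, was called, falling by 0.41 (adjusted p = 0.040). It stood at 13.9, 9.45 and 7.44 CPM in control and 9.39, 8.43 and 5.17 CPM in NMDA libraries, and the groups overlapped. Of 18 subunits of RNA polymerases I and III, only Cd3eap, a polymerase I subunit, was called, rising by 0.40 (adjusted p = 0.024). It stood at 10.6, 11.1 and 10.6 CPM in control and 14.1, 12.7 and 15.8 CPM in NMDA libraries, with no overlap.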

How the data were processed

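Gene expression was measured by poly(A)-selected, stranded RNA-seq, per the labels' protocols, in 3 control and 3 NMDA libraries. The authors deposited raw counts of reads per gene. Per the submitters' processing notes, Trimmomatic, TopHat and HTSeq were used with the builds GRCm38.p6 and mm10. Not given in the sources used here are tool versions, the annotation, and whether counting used strand. Whole-number totals were 15417234 to 19183999, and libraries of a group differed beyond sampling noise (chi-square per degree of freedom 7.76 to 54.3). The 2153 rows with no symbol stayed in the tests. The members and lists were chosen with earlier results of these data known.

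Counts were tested with edgeR 4.0.16 in R 4.3.3 (default filter with minimum count 10 and minimum total 15, leaving 14642 genes; TMM; robust quasi-likelihood F tests; Benjamini-Hochberg adjustment over all genes; threshold 0.05). Standard errors were derived from the F statistic, and intervals are 95% and not adjusted. CPM values use TMM library sizes; exon lengths, coordinates and overlaps are from GENCODE M21 (GRCm38), which held 36429 of the identifiers, and promoter sequence is from RefSeq on GRCm38.p6. The correlation of deviations from group means was 0.54, 0.38 and 0.49 for same-numbered libraries and -0.41 to -0.02 for others. Deviations cancel out within a group, so the negative values are tied to the positive ones and are not separate evidence of pairing. As each same-number value exceeded 0.1, same-numbered libraries were treated as pairs. The labels do not state what a number marks, so this pairing is a reading of the same data that the blocked fit then tested. The blocked fit had 2 residual degrees of freedom (4 without) and a biological coefficient of variation of 7.06% (13.0% without). Partner ratios were tested by exact two-sided permutation over libraries, with adjustment over 6 ratios. Scripts were tested on simulated counts. The genes given in every library are those called in either fit, Polr2a, and the member of each complex with the smallest p without the block; Ccnt1, Cdk9, Hexim1, Aff4, Ell, Ell2, Leo1 and Paf1 were added as their partners after their values were seen. Alternatives were DESeq2 1.42.0 size factors and Wald test, upper quartile scaling, limma-voom (limma 3.58.1), other filters, the block with GC and length offsets (mgcv 1.9.3), libraries left out in turn and, added after the data were seen, the DESeq2 Wald test with the block.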

Additional observations from a re-analysis of the deposited data

How the results depend on the processing

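The calls of members rest on the replicate block: without it 0 rose and 0 fell under each scaling, DESeq2, limma-voom and the stricter filter, and no low-count filter called 1 member higher (Aff1). With the replicate block 3 were higher and 1 lower, with GC and length offsets added 4 and 1, and in the DESeq2 Wald test with the block 3 and 1. Leaving out libraries, or pairs in the blocked fit, gave 0 to 4 higher and 0 to 1 lower; Rtf1, Larp7, Aff1 and Ccnt2 were called in each of the 3 blocked fits without a pair. Over all alternatives their log2 changes ranged from 0.27 to 0.39, 0.32 to 0.63, 0.45 to 0.78 and -0.62 to -0.27. For the 65 other transcription genes the block gave 2 higher and 4 lower, with offsets 2 and 4, the DESeq2 Wald test 1 lower, also with the block, and fits with libraries left out 0 to 4 higher and 0 to 3 lower. Over all genes, the 55 higher and 8 lower calls became 150 and 150 in the DESeq2 Wald test, 130 and 130 with no filter, 828 and 1223 with the block, 1160 and 970 with the block and offsets, and 444 and 475 in DESeq2 with the block; DESeq2 size factors gave 5 lower, leaving out 1 library gave 19 to 89 higher and 0 to 57 lower, and leaving out 1 pair in the blocked fit gave 335 to 1341 higher (705 without replicate 3) and 683 to 1366 lower (758 without replicate 3). The causes were not tested.

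Of the members' fitted changes under all alternatives, 66 changed sign, 28 came past the threshold and 500 did neither; each sign change was in a member called in no fit. They were Polr2a with DESeq2 size factors, upper quartile scaling and the DESeq2 Wald test without and with the block (0.01 each), no filter (0.00) and the block with offsets (0.03); Polr2g with the first scalings (0.00) and DESeq2 (0.01); Polr2h with those scalings (0.00), DESeq2 (0.01, and 0.02 with the block), limma-voom (0.02) and the block (0.01); Ccnt1 with the stricter filter (0.00); and Aff4 (0.05) and Cdc73 (0.20) with the block and offsets. With libraries left out, the other sign changes fell within these ranges, with brackets for single libraries alone where given: Polr2a -0.09 to 0.07 (-0.06 to 0.04), Polr2b -0.03 to 0.18, Polr2d -0.02 to 0.20, Polr2e -0.11 to 0.04, Polr2f -0.03 to 0.17 (-0.02 to 0.14), Polr2g -0.07 to 0.06, Polr2h -0.16 to 0.13, Polr2j -0.03 to 0.13, Polr2k -0.12 to 0.22, Nelfa -0.09 to 0.05 (-0.08 to 0.02), Nelfb -0.26 to 0.02, Cdk9 -0.01 to 0.09, Ccnt1 -0.04 to 0.06, Aff4 -0.09 to 0.03, Ctr9 -0.19 to 0.06 (-0.17 to 0.01) and Cdc73 -0.05 to 0.03. The ratio of Polr2a to Polr2b came to 0.00 without NMDA replicate 2. No partner ratio could pass 0.05. Ell3 had at most 6 reads in a library, and the reason for its low count was not tested.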
